A study of Mus musculus with 9 samples.

Results

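The interstitial collagen genes of the mouse tongue were compared between mice with an inducible Bmi1 transgene and control mice. The group was chosen by name: every collagen gene symbol of the deposited table except the basement membrane collagens (Col4a1 to Col4a6), the multiplexins (Col15a1 and Col18a1) and Col17a1 of the hemidesmosome. This rule, which used no measured value, took 35 of 44 collagen symbols, out of 20512 gene symbols in all. The 35 comprised 11 fibrillar genes, 9 FACIT genes, 6 genes of beaded filament chains, 3 network-forming genes, 1 anchoring fibril gene, 3 transmembrane genes and 2 others.

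Whole tongues were profiled by RNA sequencing in 4 libraries of genotype K14-rtTA; TREFLBmi-1 and 5 libraries of genotype K14-rtTA ONLY. All were from C57/Bl6 by FVB/NJ mice about 6 weeks old, and both groups had drunk doxycycline at 2 mg/mL for 1 week, so the activator and the drug were common to both. In these mice the keratin 14 promoter drives a doxycycline-dependent activator in basal epithelial cells, and TREFLBmi-1 is the Bmi1 transgene that the activator switches on. Nothing in the labels states that the libraries are from separate animals. The p-values therefore measure only how far these libraries scatter, which may be technical.

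Collagens are secreted proteins whose chains wind around each other along stretches in which glycine recurs at a fixed interval. Fibrillar collagens (types I, III and V) form the cross-striated fibrils of connective tissue, FACIT collagens sit on fibril surfaces, type VI collagen forms beaded filaments around cells, and type VII collagen forms the anchoring fibrils that fasten a stratified epithelium to the tissue beneath it. In the tongue, fibroblasts of the lamina propria and of the sheaths around muscle fibres are the main source of fibrillar collagen, while basal keratinocytes are a known source of type VII.

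The glycine repeat is visible in the coding sequences, which are shown for 1 member of each of 4 structural classes because they are members that the results below describe in full. Each line gives 54 bases from the start of the longest uninterrupted repeat in the coding sequence (GENCODE M21, GRCm38, transcript strand), and capitals mark the glycine codon GGN that opens each triplet of codons.
Col3a1: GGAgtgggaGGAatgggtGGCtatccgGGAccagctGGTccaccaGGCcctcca
Col14a1: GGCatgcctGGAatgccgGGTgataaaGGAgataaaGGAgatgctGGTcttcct
Col6a3: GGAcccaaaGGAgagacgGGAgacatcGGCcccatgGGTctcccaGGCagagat
Col7a1: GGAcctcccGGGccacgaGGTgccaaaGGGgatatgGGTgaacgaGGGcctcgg
The longest repeat ran for 344 triplets in Col3a1, a fibrillar gene, and for 32 in Col14a1, a FACIT gene. It ran for 45 triplets in Col6a3 and 75 in Col7a1, whose repeat was split into 20 runs with 475 triplets in total. The other abundant fibrillar genes had unbroken repeats close to that of Col3a1, with 338 triplets in Col1a1, 339 in Col1a2, 338 in Col5a1, 339 in Col5a2 and 337 in Col5a3. The lowest value among fibrillar genes was 216, in Col24a1, while the highest in any other class was 113, in FACIT genes such as Col22a1, and the other classes overlapped.

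The deposited values are log2 normalized expression. No counts come with them, which leaves sequencing depth unknown. Every difference below is transgene minus control on that log2 scale. The labelled tissue carried its defining markers. The keratin gene Krt13 of the tongue surface stood between 18.35 and 18.79 in transgene libraries and between 18.51 and 18.91 in controls, and the fast muscle myosin gene Myh4 between 18.53 and 18.70 in transgene libraries and between 18.27 and 18.49 in controls. Bmi1 stood at 12.49, 12.05, 14.87 and 11.94 in transgene replicates 1 to 4, above 10.74, 10.21, 10.24, 10.45 and 10.34 in control replicates 1 to 5. Its difference was 2.44 (SE 0.60, limma adjusted p = 0.0672), and transgene replicate 3 was far above the other transgene libraries.

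The values carry a linear constraint that splits the 9 libraries into 3 strata of unknown origin, as described under processing. Stratum 1 holds transgene replicate 1 and control replicate 1. Stratum 2 holds transgene replicates 2, 3 and 4 and control replicates 2 and 3. Stratum 3 holds control replicates 4 and 5 and adds nothing to the difference. Tests used limma with terms for these strata. Numbers from limma with the group as the only term, which counts more residual degrees of freedom than the values hold, are given beside them as the group-only fit.

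Of the 35 genes, 30 reached the floor for testing, a mean log2 value of 3 over all libraries. Collagen genes of cartilage were among those below it, with Col2a1 between 2.20 and 2.23, Col9a1 between 0.49 and 0.50, Col9a2 between 2.94 and 3.05 and Col10a1 between -0.19 and -0.18 over all 9 libraries, and so was Col6a4, between 0.17 and 0.20. Nearest to the floor on either side were Col9a2 with a mean of 2.97 and Col9a3 with a mean of 3.93.

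The difference was above 0 for 28 of the 30 tested collagen genes, against 51% of all tested genes. Only Col7a1 was called higher at an adjusted p under 0.05 (0.511% of all tested genes were), and no member was called lower (1.15% of all tested genes were). At an unadjusted p under 0.05, 16 members were higher (11.2% of all tested genes) and 0 lower (11.8%). The group-only fit called 14 members higher (11.7%) and 0 lower (12.7%). The median difference over the 30 members was 0.19, beside 0.003 over all tested genes. In whole-tongue RNA, a change in the number of collagen-producing cells and a change in the RNA made per cell cannot be told apart.

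**Figure D1:**
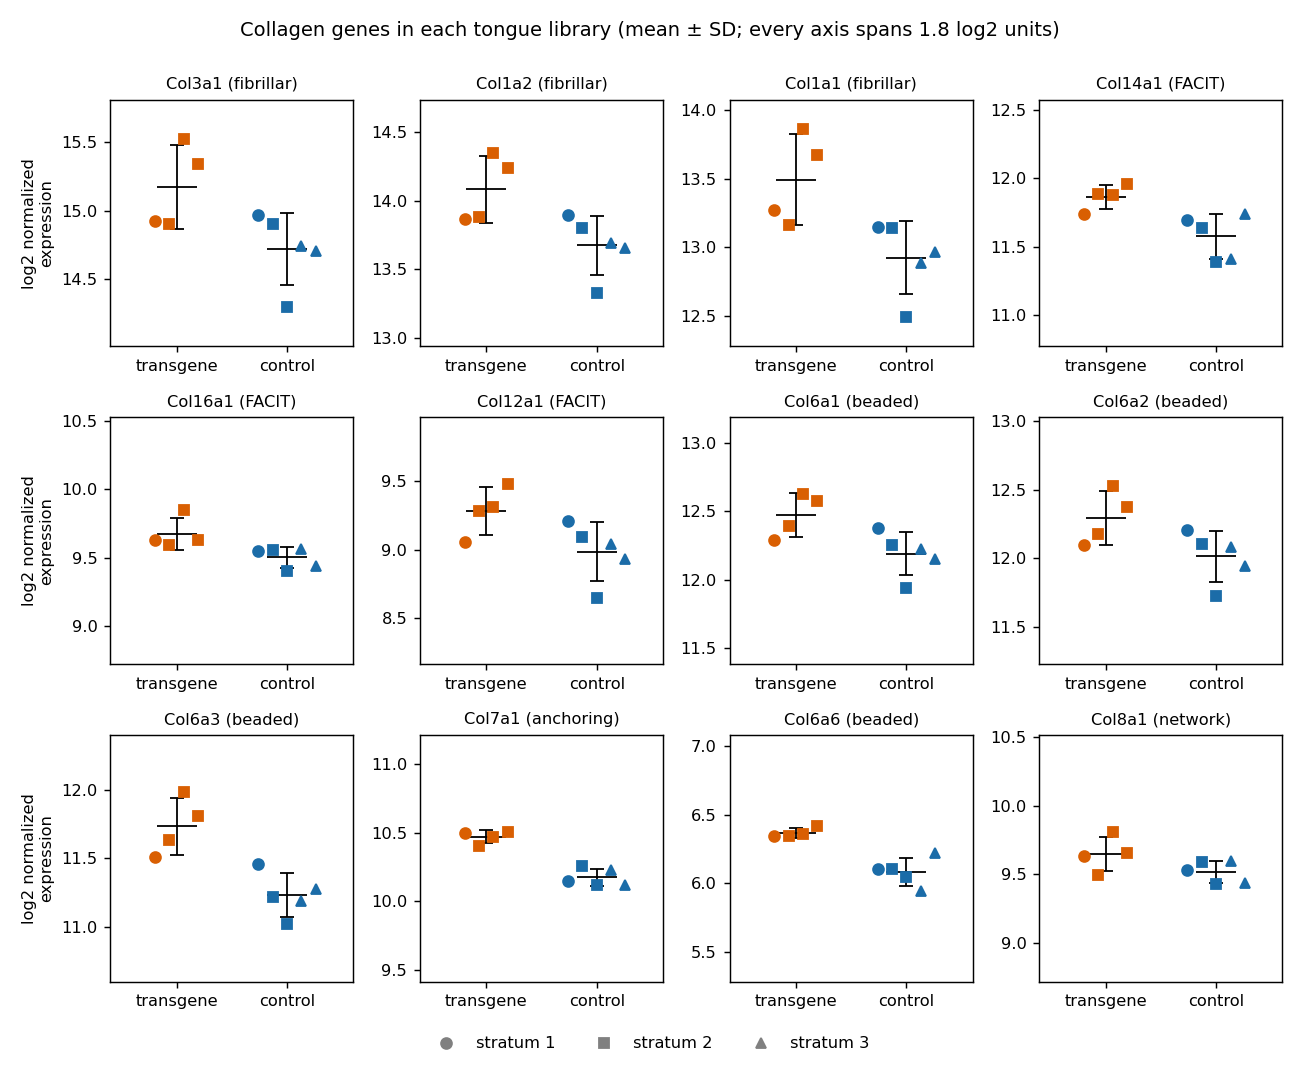
Deposited log2 value (vertical axis of each panel, own scale) of 12 collagen genes, with 1 point per library, the 4 transgene libraries at the left and the 5 controls at the right of each panel, and bars for the mean with its SD. Symbols mark the stratum. In Col7a1, Col6a3 and Col6a6 every transgene point lies above every control point, while in Col3a1 and Col1a2 transgene replicates 1 and 2 lie among the controls.

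The fibrillar genes Col3a1, Col1a2 and Col1a1 were the most abundant members, and transgene replicate 3 was their highest and control replicate 3 their lowest library. Per kilobase of transcript, the log2 level over all libraries was 12.45 for Col3a1 (the chain of type III collagen), 11.44 for Col1a2 and 10.61 for Col1a1 (the chains of type I collagen). The beaded filament genes Col6a1 at 10.28 and Col6a2 at 9.92 and the FACIT gene Col14a1 at 9.01 came next, followed by 8.998 for Col5a2 and 8.79 for Col5a1 (chains of type V, which regulates fibril width).

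Col3a1 stood at 14.92, 14.90, 15.52 and 15.34 in transgene replicates 1 to 4, against 14.97, 14.90, 14.29, 14.74 and 14.70 in control replicates 1 to 5. Transgene replicates 3 and 4 were above every control, control replicate 3 was below all other libraries, and the groups overlapped. The means were 15.17 ± 0.31 in transgene libraries (SD, n = 4) and 14.72 ± 0.26 in controls (SD, n = 5), a difference of 0.45 (SE 0.19, limma adjusted p = 0.198).

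Col1a2 had the same order of libraries at both ends, at 13.87, 13.88, 14.35 and 14.24 in transgene replicates 1 to 4, against 13.89, 13.80, 13.33, 13.69 and 13.66 in control replicates 1 to 5. Its difference was 0.41 (SE 0.16, limma adjusted p = 0.162), and control replicate 1 lay above transgene replicates 1 and 2.

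Col1a1, which supplies a pair of chains to each type I molecule where Col1a2 supplies a single one, stood at 13.27, 13.16, 13.86 and 13.67 in transgene replicates 1 to 4. The controls were at 13.15, 13.14, 12.49, 12.89 and 12.96, so the groups did not overlap, though transgene replicate 2 exceeded control replicate 1 by a narrow margin. The difference of 0.57 (SE 0.20), a 1.48-fold higher level, was the largest among the members and did not pass in limma (adjusted p = 0.135), while the group-only fit called it (adjusted p = 0.0287). Over all alternatives its limma adjusted p ran from 0.0287 to 0.417, the highest without control replicate 3, where the difference was 0.31.

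The 3 type V genes followed the same libraries. Col5a1 differed by 0.45 (SE 0.17), Col5a2 by 0.39 (SE 0.15) and Col5a3 by 0.48 (SE 0.17), with limma adjusted p-values from 0.133 to 0.154. In all 6 genes of types I, III and V, transgene replicate 3 was the highest library, transgene replicate 4 the next and control replicate 3 the lowest. Transgene replicate 4 had the lowest Bmi1 of the transgene group, and transgene replicate 3 the highest. The part of library quality in this order was not tested.

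Of the rarer fibrillar genes, Col24a1, Col27a1 and Col11a2 had another library at the top. Col24a1, which encodes a fibrillar chain found in bone, stood at 7.83, 7.90, 7.61 and 7.73 in transgene replicates 1 to 4, against 7.51, 7.62, 7.60, 7.52 and 7.64 in control replicates 1 to 5. Col27a1, whose product is known from cartilage, stood at 7.41, 7.46, 7.30 and 7.19 in transgene libraries, against 7.04, 7.27, 7.02, 7.08 and 7.14 in controls. Transgene replicates 1 and 2 were the highest libraries for Col24a1 and Col27a1, and control replicate 3 was the lowest for Col27a1. The differences were 0.19 for Col24a1 (SE 0.08, limma adjusted p = 0.176) and 0.23 for Col27a1 (SE 0.08, limma adjusted p = 0.148). Col11a1 and Col11a2, which encode cartilage fibril chains, were low. Col11a1 stood between 4.84 and 5.01 in transgene libraries and between 4.69 and 4.85 in controls, and differed by 0.10, with transgene replicate 3 highest and control replicate 3 lowest. Col11a2 stood between 5.05 and 5.28 in transgene libraries and between 5.06 and 5.14 in controls, and differed by 0.11. Its highest library was transgene replicate 2 and its lowest of all was transgene replicate 3.

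Over the 10 tested fibrillar genes the median difference was 0.40. It was 0.07 in stratum 1, which has 1 library of each group, and 0.57 in stratum 2. Without control replicate 3 it was 0.20, and without transgene replicate 3 it was 0.32. Of the 10, limma called 0 higher (0.511% of all tested genes were) and put 8 higher at an unadjusted p under 0.05 (11.2%). The group-only fit called 7 higher (11.7%).

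**Figure D2:**
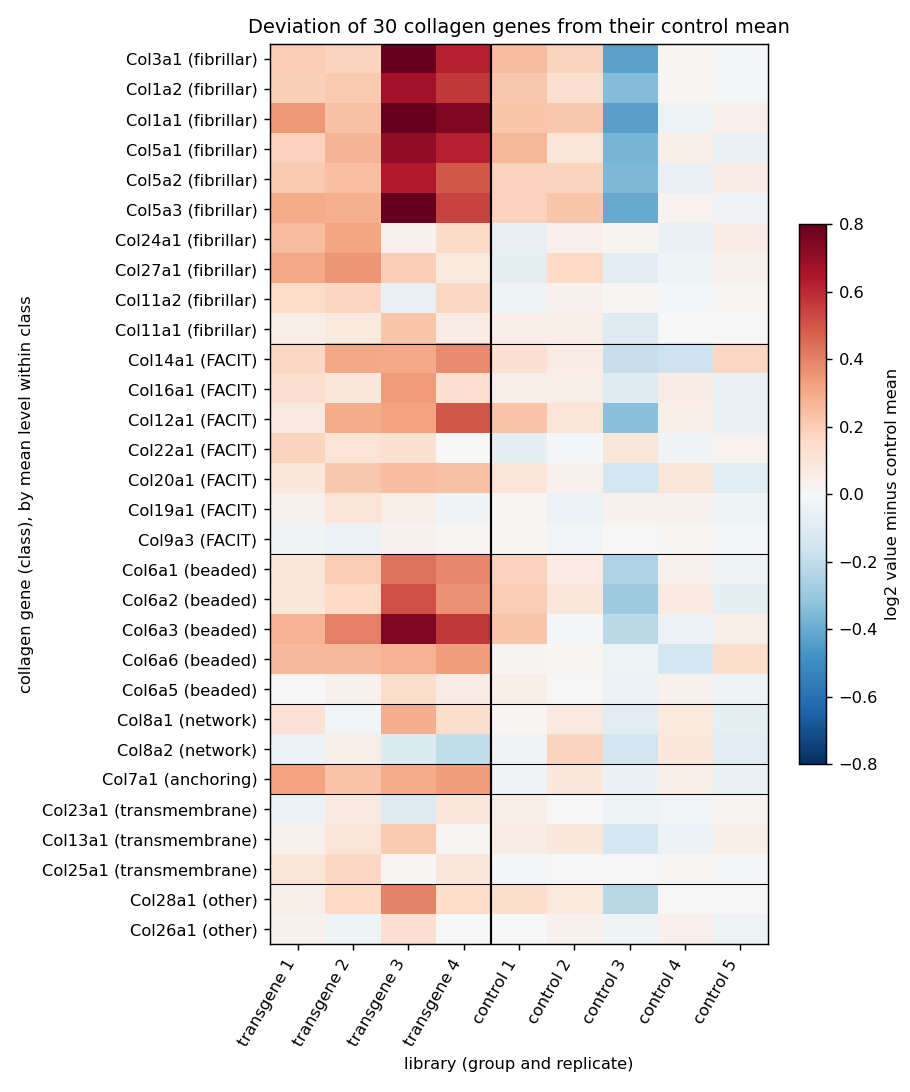
Deviation of each tested collagen gene (rows, grouped by class) in each library (columns, the 4 transgene libraries first) from the mean of the 5 controls, in log2 units shown by colour. The rows of the type I, III and V genes are highest in transgene replicates 3 and 4 and lowest in control replicate 3, with a median over the fibrillar class of 0.65 in transgene replicate 3 and -0.36 in control replicate 3, whereas Col7a1 is raised by similar amounts in all 4 transgene libraries.

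The order of libraries extended past the fibrillar genes. Transgene replicate 3 was the highest of the 9 libraries for 18 of the 30 tested members, against 16.7% of all tested genes, and control replicate 3 was the lowest for 20 of the 30, against 14.3%. The median deviation of the members from the control mean was 0.12, 0.18, 0.28 and 0.16 in transgene replicates 1 to 4, and 0.05, 0.06, -0.12, 0.01 and -0.01 in control replicates 1 to 5. Control replicates 4 and 5 alone form stratum 3, so the constraint makes their deviations equal and opposite in every gene. Without control replicate 3 the median difference over the members was 0.11, with 3 members higher at an unadjusted p under 0.05 in limma (7.12% of all tested genes) and 0 called (0%). Without transgene replicate 3 it was 0.19, with 10 such members (10.5%) and 0 called (0.0621%).

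Sequences before the start sites are shown for Col1a2 and Col3a1, which shared their highest and lowest libraries, and for Col7a1, the called member described below. Each line gives the 250 bases before the RefSeq start site (GRCm38.p6, plus strand), and capitals mark the TATA box letters TATAAA, the CAAT box letters CCAAT or the GC box letters GGGCGG on either strand.
Col1a2, chr6:4505368-4505617: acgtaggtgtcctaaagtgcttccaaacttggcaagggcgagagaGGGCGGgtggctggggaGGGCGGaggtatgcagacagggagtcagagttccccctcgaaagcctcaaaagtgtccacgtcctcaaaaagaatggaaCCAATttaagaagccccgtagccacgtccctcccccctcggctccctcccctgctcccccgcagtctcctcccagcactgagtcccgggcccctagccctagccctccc
Col3a1, chr1:45311288-45311537: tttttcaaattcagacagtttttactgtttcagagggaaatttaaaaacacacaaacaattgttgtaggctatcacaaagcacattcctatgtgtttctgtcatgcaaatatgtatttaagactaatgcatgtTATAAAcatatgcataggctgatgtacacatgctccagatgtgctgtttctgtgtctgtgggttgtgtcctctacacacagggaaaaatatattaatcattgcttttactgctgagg
Col7a1, chr9:108953336-108953585: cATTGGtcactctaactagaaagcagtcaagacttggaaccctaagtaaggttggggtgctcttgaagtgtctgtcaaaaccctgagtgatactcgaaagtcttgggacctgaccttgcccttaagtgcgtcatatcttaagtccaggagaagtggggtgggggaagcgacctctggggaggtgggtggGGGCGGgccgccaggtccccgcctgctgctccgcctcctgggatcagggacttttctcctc
Col1a2 held GGGCGG at positions -205 and -188 and CCAAT at -109, Col3a1 held TATAAA at -117, and Col7a1 held CCAAT on the other strand at -249 and GGGCGG at -61. No motif was common to all 3 windows. A promoter entry was found for 27 of the 35 members, which does not include Col1a1 or Col5a2. TATAAA was found in 4 of them, CCAAT in 8 and GGGCGG in 17, against 12.4%, 33.8% and 32.7% of 32851 RefSeq windows of the same length. These are matches of letters and say nothing of binding.

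Among the beaded filament chains, Col6a3 had the largest difference. Type VI collagen is assembled from a chain each of Col6a1, Col6a2 and a further chain, which Col6a3 or one of Col6a4, Col6a5 and Col6a6 supplies. Col6a3 stood at 11.51, 11.63, 11.98 and 11.81 in transgene replicates 1 to 4, against 11.45, 11.22, 11.02, 11.18 and 11.28 in control replicates 1 to 5. Every transgene library was above every control, with a narrow gap between transgene replicate 1 and control replicate 1. The means were 11.73 ± 0.21 in transgene libraries (SD, n = 4) and 11.23 ± 0.16 in controls (SD, n = 5). The difference of 0.50 (SE 0.12), a 1.41-fold higher level, had an adjusted p of 0.0691 in limma and 0.00702 in the group-only fit. Over all alternatives its limma adjusted p ran from 0.00702 to 0.240, the highest without control replicate 3, where the difference was 0.37.

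Col6a1 stood at 12.29, 12.40, 12.63 and 12.58 in transgene replicates 1 to 4, against 12.38, 12.25, 11.94, 12.23 and 12.15 in control replicates 1 to 5. Col6a2 stood at 12.10, 12.18, 12.53 and 12.38 in transgene libraries, against 12.21, 12.11, 11.73, 12.09 and 11.95 in controls. Both genes overlapped between the groups, with control replicate 1 above transgene replicate 1, and each differed by 0.28 (limma adjusted p = 0.174 for Col6a1 and 0.230 for Col6a2).

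Col6a6 was a low gene with close replicates, at 6.34, 6.34, 6.36 and 6.42 in transgene replicates 1 to 4, against 6.11, 6.10, 6.04, 5.95 and 6.22 in control replicates 1 to 5. All transgene libraries were above all controls. The difference of 0.28 (SE 0.065) was seen in stratum 1 (0.24) and in stratum 2 (0.30), and its limma adjusted p was 0.0583. Col6a5 differed by 0.06 (limma adjusted p = 0.442).

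Ratios between chains that share a molecule or a fibril were computed within each library, which removes whatever scales both chains alike. A trend with transcript length is not removed where the chains differ in length, as Col6a3 (10106 bases) and Col6a1 (4100 bases) do. With the length trend taken out, described below, Col6a3 differed by 0.35 and Col6a1 by 0.24 between the groups. The log2 ratio of Col6a3 to Col6a1 was -0.74 ± 0.06 in transgene libraries (SD, n = 4) and -0.96 ± 0.07 in controls (SD, n = 5), a difference of 0.22. Its exact permutation p within strata, two-sided, was 0.05, the smallest that 20 splits allow, and 0.25 after adjustment over the 5 ratios computed. The ratio of Col6a2 to Col6a1 was -0.18 ± 0.05 in transgene libraries and -0.18 ± 0.03 in controls, a difference of 0.00. The Col1a1 to Col1a2 ratio was -0.59 ± 0.10 in transgene libraries and -0.75 ± 0.07 in controls (exact permutation p = 0.15, adjusted 0.25). The Col3a1 to Col1a1 ratio was 1.68 ± 0.04 in transgene libraries and 1.797 ± 0.045 in controls (exact permutation p = 0.10, adjusted 0.25). The Col5a1 to Col5a2 ratio was 0.16 ± 0.06 in transgene libraries and 0.11 ± 0.10 in controls (exact permutation p = 0.40, adjusted 0.50). No ratio passed after adjustment.

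Col7a1, the only chain of anchoring fibril collagen, was the single member called. It stood at 10.50, 10.40, 10.47 and 10.51 in transgene replicates 1 to 4, against 10.14, 10.26, 10.12, 10.23 and 10.12 in control replicates 1 to 5. The 4 transgene libraries were close together and all above the controls. The means were 10.47 ± 0.05 in transgene libraries (SD, n = 4) and 10.17 ± 0.06 in controls (SD, n = 5), a 1.23-fold difference. On the log2 scale the difference was 0.30 (SE 0.05, limma adjusted p = 0.0419), with 0.35 in stratum 1 and 0.27 in stratum 2. The exact permutation test gave p = 0.05 within strata, the smallest possible there, and p = 0.00794 when labels were permuted without regard to strata, likewise the smallest possible. The permutation without regard to strata ignores the constraint in the values, so its p may be too small. The call was lost without any 1 of transgene replicates 2 to 4 or control replicates 2 to 5 (limma adjusted p from 0.0538 to 0.174), where the difference ranged from 0.26 to 0.35. It was also lost in stratum 2 alone (limma adjusted p = 0.0556), and with the transcript length trend taken out, where the difference was 0.15 (limma adjusted p = 0.302). Without transgene replicate 2, without any 1 of control replicates 2 to 5, and with the length trend taken out, limma called 0 of all tested genes higher. Keratinocytes are a known source of Col7a1. The summed log2 level of 7 keratinocyte markers lay between 19.56 and 20.0006 in transgene libraries and between 19.65 and 20.06 in controls. Krt13 and Krt4 have the highest values among them and weigh most in that sum. The basal cell gene Krt14 differed by -0.16, Krt5 by -0.10 and Trp63 by -0.02 (limma, adjusted p between 0.241 and 0.906). The 1 gene called among the 7 markers, Krt36 of the papillae, was lower by 0.86.

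The most abundant FACIT gene was Col14a1, whose product sits on fibrils and limits their growth. It stood at 11.74, 11.88, 11.88 and 11.96 in transgene replicates 1 to 4, against 11.70, 11.64, 11.39, 11.41 and 11.74 in control replicates 1 to 5. The lowest transgene library lay just above the highest control, with no overlap. The difference was 0.29 (SE 0.10), with a limma adjusted p of 0.129, and 0.0224 in the group-only fit. Over all alternatives that p ran from 0.0224 to 0.393, the highest without control replicate 3, where the difference was 0.18.

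Col16a1, a minor fibril-associated chain, stood at 9.63, 9.59, 9.84 and 9.63 in transgene replicates 1 to 4, against 9.55, 9.56, 9.40, 9.56 and 9.44 in control replicates 1 to 5. Its groups did not overlap either, and the difference was 0.17 (SE 0.07, limma adjusted p = 0.208). Col12a1, a large chain of dense connective tissue, stood at 9.05, 9.28, 9.31 and 9.48 in transgene libraries, against 9.21, 9.09, 8.65, 9.04 and 8.93 in controls. Its difference was 0.30 (SE 0.14, limma adjusted p = 0.229), and it was -0.16 in stratum 1 and 0.49 in stratum 2. Of the other FACIT genes, Col20a1 differed by 0.19, Col22a1 by 0.10, Col19a1 by 0.04 and Col9a3 by -0.01 (limma, adjusted p between 0.185 and 0.878).

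No network-forming or transmembrane gene was called, nor either of the other genes. The network-forming Col8a1, a short-chain collagen of vessel walls and of the cornea, stood at 9.63, 9.50, 9.81 and 9.66 in transgene replicates 1 to 4, against 9.53, 9.59, 9.43, 9.60 and 9.44 in control replicates 1 to 5. Its difference was 0.13 (SE 0.08, limma adjusted p = 0.347), and that of its relative Col8a2 was -0.08 (SE 0.09, limma adjusted p = 0.645). The transmembrane Col23a1 stood at 8.94, 9.06, 8.88 and 9.07 in transgene libraries, against 9.03, 8.98, 8.94, 8.97 and 9.01 in controls, and differed by 0.00 (SE 0.06). Col13a1, a transmembrane chain of the neuromuscular junction, differed by 0.09 (SE 0.07) and Col25a1, also transmembrane, by 0.09 (SE 0.04). Col28a1, which is known from peripheral nerve, stood at 8.0002, 8.11, 8.35 and 8.10 in transgene libraries, against 8.10, 8.04, 7.73, 7.95 and 7.96 in controls. Its difference was 0.19 (SE 0.10, limma adjusted p = 0.310), and that of Col26a1 was 0.04 (SE 0.04).

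**Figure D3:**
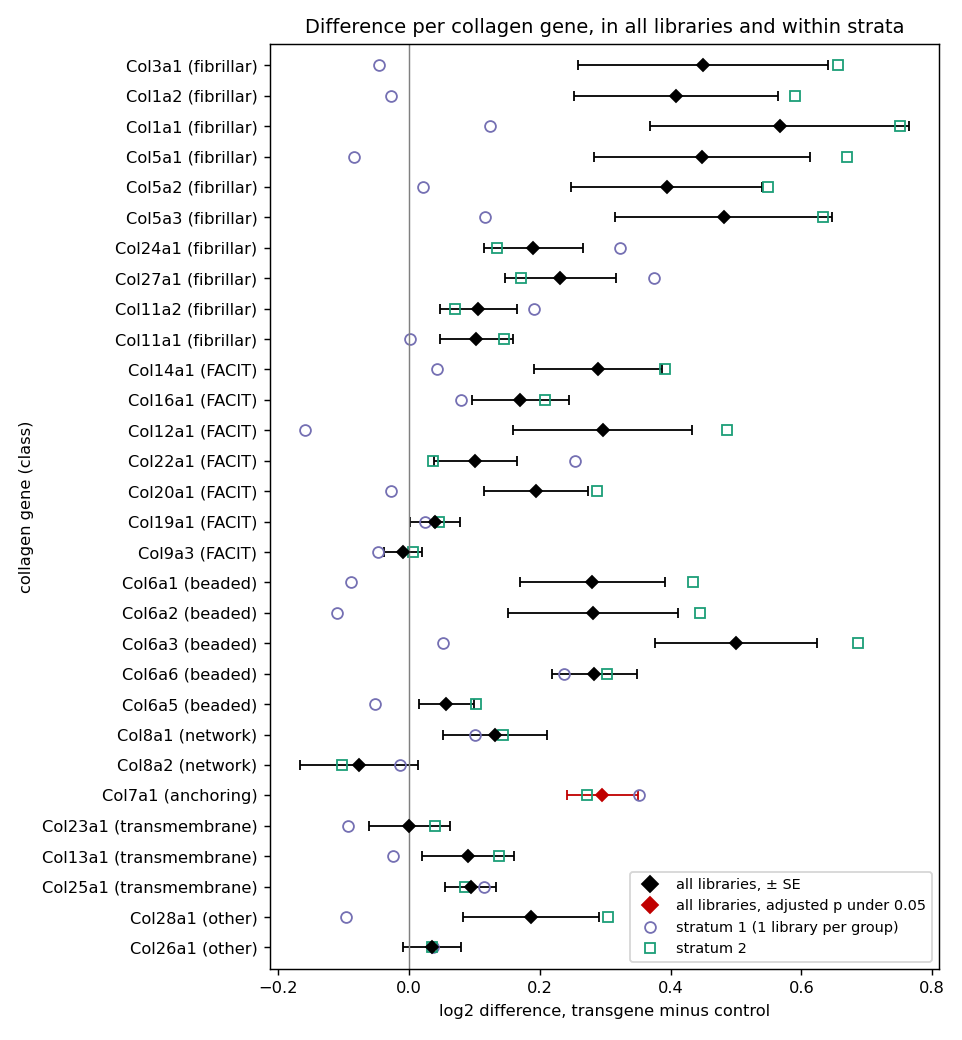
Difference in log2 value, transgene minus control (horizontal axis), of each tested collagen gene, with bars of 1 SE from the fit with stratum terms and separate symbols for the difference in stratum 1 and in stratum 2. In the abundant fibrillar genes and in Col6a1 to Col6a3 the stratum 2 symbol lies from 0.43 to 0.75 and the stratum 1 symbol between -0.11 and 0.12, while for Col7a1 and Col6a6 the symbols lie close to each other.

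The differences were also computed within each stratum. In stratum 1, transgene replicate 1 was above control replicate 1 for 17 of the 30 members, with a median of 0.02, beside -0.007 over all tested genes. In stratum 2 the difference was above 0 for 29 of 30, with a median of 0.24, beside 0.007 over all tested genes. The share of all tested genes above 0 was not computed for either stratum by itself. Limma on stratum 2 alone called Col14a1, Col6a3 and Col6a6 higher (2.3% of all tested genes were) and 0 lower (2.76%), with adjusted p-values from 0.0302 to 0.0417. Members above 0 in both strata numbered 17, against 26.3% of all tested genes. The difference between the strata was itself tested in limma. It was called for 0 of 30 members (0.138% of all tested genes were called with stratum 2 higher and 0.0207% with it lower), and 5 of the 30 had an unadjusted p under 0.05 (9.21%). Those 5 were Col12a1, Col5a1, Col6a1, Col6a2 and Col6a3, and the lowest adjusted p was 0.172, for Col6a3. Control replicate 3, the library with the lowest collagen levels, belongs to stratum 2.

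All transgene libraries lay above all controls for 9 of the 30 members (9.76% of all tested genes), namely Col1a1, Col5a2, Col5a3, Col6a3, Col6a6, Col7a1, Col14a1, Col16a1 and Col25a1. All lay below for 0 of 30 (11.6% of all tested genes). The exact permutation test within strata gave its smallest possible p of 0.05 for 5 members, namely Col5a2, Col6a3, Col6a6, Col7a1 and Col14a1. The share of all tested genes that reach this p was not computed, so the count cannot be read as particular to collagen genes.

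Transcript length moved with these differences. By the longest coding transcript of each gene in GENCODE M21, the tested collagen genes had a median length of 5989 bases (2781 to 11511), against 3139 bases for all tested genes. Over all tested genes split into 5 classes of nearly equal size by length, the median difference was -0.10 in the shortest class and 0.11 in the longest. Of the 30 members, 20 belonged to the longest class, with a median difference of 0.29, and 7 to the next longest, with a median of 0.19, where all genes of that class had 0.04. The remaining 3 members, of the middle class, had a median of 0.04. The slope of the deviation on log2 length was 0.01, 0.06, 0.05 and 0.07 in transgene replicates 1 to 4, and -0.01, -0.07, -0.04, -0.04 and -0.04 in control replicates 1 to 5, so it differed in sign between the groups.

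With the length trend taken out, limma called 0 members higher (0% of all tested genes with a length) and 0 lower (0.0139%), and put 4 under an unadjusted p of 0.05 (7.54%). The median over the members was then 0.12, beside 0.002 over all tested genes with a length, and 22 of 30 members were above 0. The difference of Col7a1, given above, was 0.15. The group-only fit with the length trend taken out called 1 member higher (6.15% of all tested genes with a length), Col6a3, at an adjusted p of 0.0312. Col6a3 was then at 0.35 and Col1a1 at 0.48. Across the 30 members, Spearman's rho of the difference was 0.41 with log2 length and 0.79 with the mean log2 level, as a description of genes measured in the same libraries. The part of RNA quality or library preparation in the length trend was not tested.

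**Figure D4:**
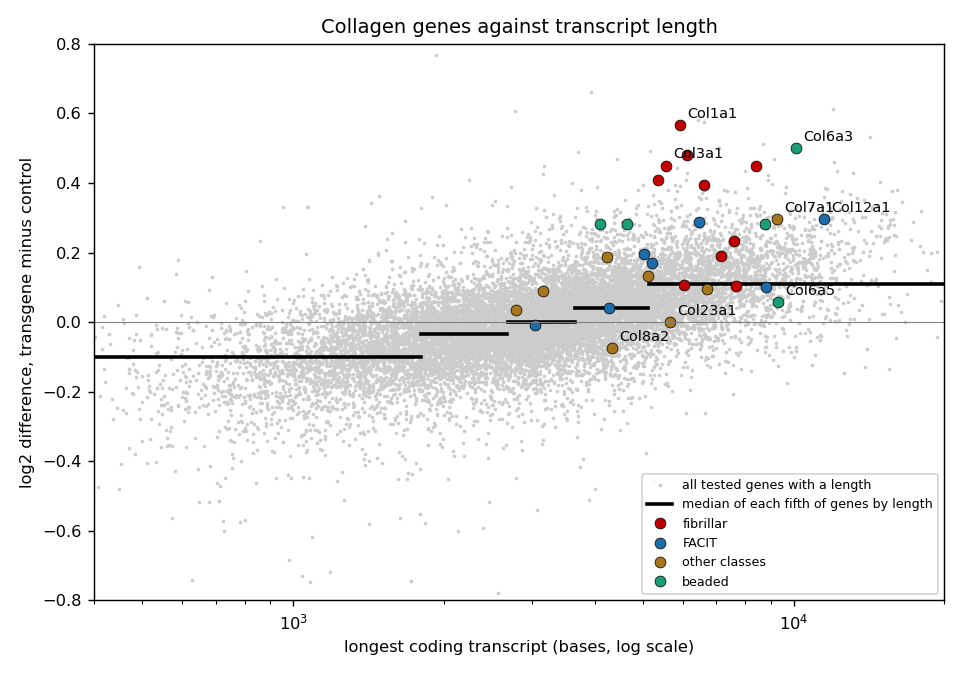
Difference in log2 value, transgene minus control (vertical axis), against transcript length in bases (horizontal axis, log scale) for the tested genes in grey and the collagen genes by class, with the median of each of 5 length classes as a line. The line climbs from -0.10 to 0.11, and the abundant fibrillar genes and Col6a3 lie above it at 0.39 to 0.57.

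The genes that modify, secrete, process and bind collagen were taken from a list of 68, of which 66 had a row and 64 were tested. Limma called 2 higher (0.511% of all tested genes were) and 0 lower (1.15%), and the median difference over the list was 0.10. The group-only fit called 16 of the 64 higher (11.7% of all tested genes were) and 3 lower (12.7%). P4ha2, a subunit of the prolyl hydroxylase that stabilizes the collagen helix, stood at 9.60, 9.61, 9.70 and 9.55 in transgene replicates 1 to 4, against 9.36, 9.32, 9.35, 9.38 and 9.31 in control replicates 1 to 5, a difference of 0.27 (SE 0.05, limma adjusted p = 0.0436). Ddr2, a receptor tyrosine kinase for fibrillar collagen, stood at 11.63, 11.72, 11.60 and 11.68 in transgene libraries, against 11.41, 11.34, 11.40, 11.34 and 11.42 in controls, a difference of 0.27 (SE 0.05, limma adjusted p = 0.0418). Neither gene overlapped between the groups, and both, like Col7a1, had close replicates. With the length trend taken out, or without any 1 of transgene replicates 2 and 3 and control replicates 2 to 5, limma called 0 genes of the list higher. In those settings it also called at most 9 of the 14490 genes higher. With the length trend taken out, P4ha2 differed by 0.31 (limma adjusted p = 0.0739) and Ddr2 by 0.14 (limma adjusted p = 0.172). Of the 16 genes that modify procollagen, P4ha2 among them, the group-only fit called 5 higher and 2 lower (11.7% and 12.7% of all tested genes). Those lower were P4hb, at -0.16 (limma adjusted p = 0.210), and Ppib, at -0.21 (limma adjusted p = 0.0697). With the length trend taken out, P4hb differed by -0.15 and Ppib, whose transcript has 892 bases, by -0.05. Limma called neither in that setting.

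In each other role, no gene was called and the gene with the largest difference was as follows. Among procollagen proteinases and their enhancers it was Bmp1, which removes the C-terminal propeptide, at 0.33 (limma adjusted p = 0.0558). Among crosslinking enzymes it was Loxl2 at 0.31 (limma adjusted p = 0.205), among fibril partners the tenascin gene Tnxb at 0.43 (limma adjusted p = 0.0656), among secretion genes Sec24d, a coat subunit needed for export of procollagen, at 0.17 (limma adjusted p = 0.238), and among regulators the TGF-beta receptor gene Tgfbr1 at 0.15 (limma adjusted p = 0.102). The receptor role, which holds Ddr2, had its largest difference in Mrc2, the uptake receptor for collagen fragments, at 0.36 (limma adjusted p = 0.0710). With the length trend taken out, Bmp1 differed by 0.30, Mrc2 by 0.27, Tnxb by 0.26, Loxl2 by 0.24, Sec24d by 0.13 and Tgfbr1 by 0.07. Their limma adjusted p-values were then between 0.110 and 0.484. None of the 4 small leucine-rich proteoglycan genes of the list, whose products coat fibrils, was called. Fmod differed by 0.13, Bgn by 0.08, Dcn by -0.05 and Lum by -0.06 (limma, adjusted p between 0.306 and 0.709).

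**Figure D5:**
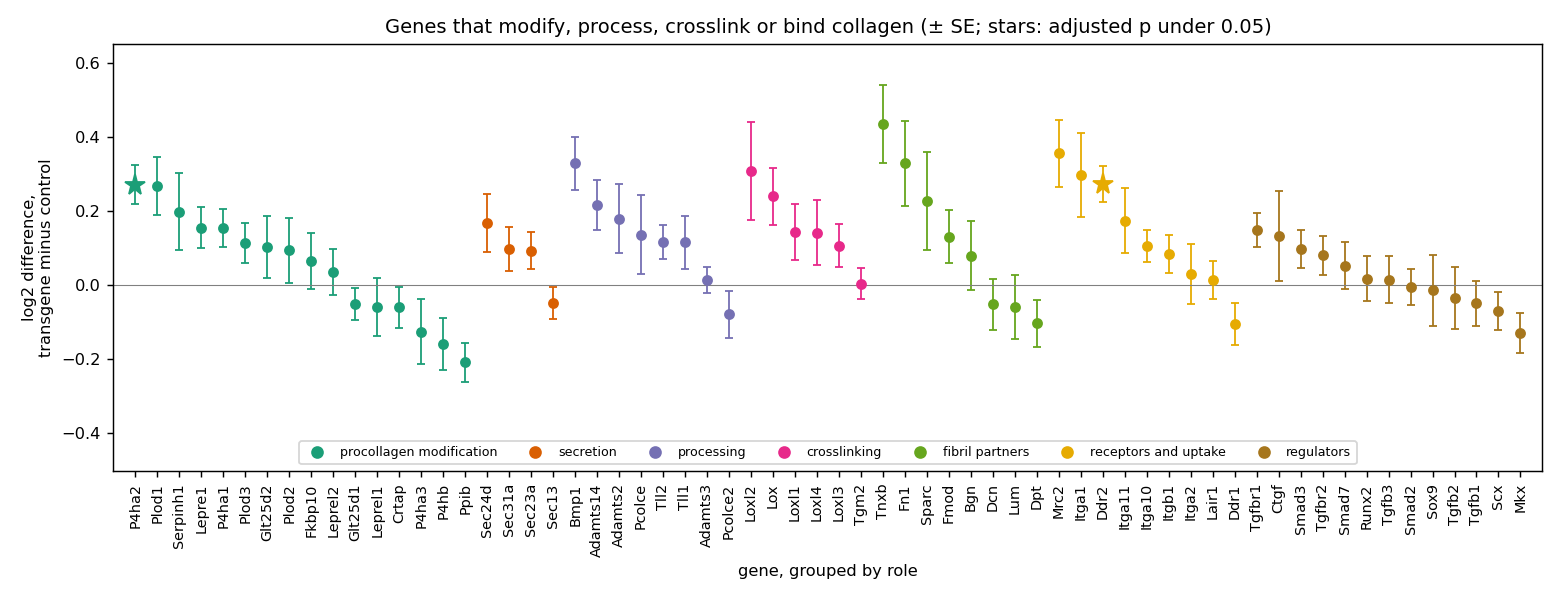
Difference in log2 value, transgene minus control (vertical axis), of the tested genes of the list (horizontal axis, grouped by role). The roles are collagen modification, secretion, processing, crosslinking, fibril partners, receptors and regulators. Each gene has 1 point with a bar of 1 SE, and stars mark the genes called in limma. P4ha2 and Ddr2 are the called genes, each at 0.27, and the medians by role lie between 0.01 and 0.14.

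Markers of the cells that could supply collagen RNA were set beside the collagen values. Of 8 fibroblast markers 0 were called, and their summed log2 level lay between 16.13 and 16.20 in transgene libraries, inside the range of 16.08 to 16.30 in controls. Dcn, at 14.91 to 15.05 in transgene libraries and 14.97 to 15.16 in controls, has the highest value among them and weighs most in that sum. The fibroblast receptor gene Pdgfra stood between 11.389 and 11.59 in transgene libraries, above 11.10 to 11.383 in controls. It had the largest difference of the 8, at 0.22 (limma adjusted p = 0.140), and 0.12 with the length trend taken out (limma adjusted p = 0.478). Vim differed by 0.08, Pi16 by 0.07, Thy1 by 0.03, Cd34 by -0.03, Dcn by -0.05, Lum by -0.06 and Dpt by -0.10. The median over the 8 was 0.0001. The endothelial list (0 of 7 called) lay between 13.80 and 14.09 in transgene libraries and between 13.53 and 13.86 in controls, and the pericyte and smooth muscle list (0 of 6 called) between 13.74 and 14.02 in transgene libraries and between 13.48 and 13.91 in controls. The macrophage list was the only one whose ranges did not overlap, at 12.66 to 12.71 in transgene libraries and 12.48 to 12.61 in controls. Among its 5 genes Csf1r was called, higher by 0.27 (0.511% of all tested genes were called higher). Mrc1 differed by 0.35, Emr1 by 0.22, Lyz2 by 0.01 and Cd68 by 0.001, and none of these was called. With the length trend taken out Csf1r differed by 0.21 (limma adjusted p = 0.0965), where limma called 0% of all tested genes with a length higher. The Schwann cell, tendon, skeletal muscle and adipocyte lists had 0 genes called and overlapping ranges. Of the 6 chondrocyte markers with a row, Matn1, Matn3 and Lect1 were below the floor and 0 of the other 3 were called, and of 6 osteoblast markers 3 were below the floor and 0 were called. No marker stood at exactly 0. The part of cell composition in the collagen differences was not tested.

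In the authors' deposited table of 981 genes, 3 collagen members were listed, all higher in transgene tongues (2.09% of all gene symbols were listed as higher). The authors' deposited table gave Col6a3 a log2 fold change of 0.47 (its SE 0.12, adjusted p-value 0.00278), Col27a1 0.39 (SE 0.13, adjusted p-value 0.0421) and Col7a1 0.37 (SE 0.08, adjusted p-value 0.000615). Col1a1, Col1a2 and Col3a1 were not in the authors' deposited table, in which the largest adjusted p-value was 0.0498.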

How the data were processed

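RNA of whole tongue was measured in 9 libraries, 4 with the Bmi1 transgene and 5 controls, as stranded mRNA libraries per the labels' protocols. The submitters' processing notes name TopHat2, HTSeq, DESeq2 and build mm9, and their versions are not given in the sources used here. Normalized log2 values for 20512 gene symbols were deposited by the authors without counts, so depth is unknown and no count model was used. Low genes are nearly equal across libraries in these values, so differences of low genes may be understated. One row without a gene name and 3064 genes at 0 in every library were left out. The authors' table of 981 genes holds, per the file headers, a mean normalized signal, a log2 fold change with its SE, a linear fold ratio, a test score, and p-values before and after adjustment.

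Splitting the libraries into 3 strata leaves no difference between strata beyond the group means in any gene, a constraint in the deposited log2 values that no label explains. Within the group difference stratum 1 has 29.4% of the weight and stratum 2 70.6%. limma 3.58.1 in R 4.3.3 was run on the 14490 genes whose log2 values averaged 3 or more, with terms for strata and group and an intensity trend. Its two-sided p-values were adjusted by Benjamini-Hochberg over all 14490 genes and called at 0.05. The script was tested on simulated data. Single members were also tested by exact permutation. Alternatives were the group as the only term, other floors, centring on the library median, no intensity trend, the length trend taken out, each stratum, and each library left out. The length trend combined with the group-only fit, and the test of the difference between strata, were added after the data were seen.

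The members and gene lists were chosen with earlier results of these data known. Every member is accounted for. Values per library are given for the 3 most abundant members by mean log2 value of the fibrillar, FACIT and beaded classes, the most abundant of each other class, every called member, every called gene of the biosynthesis and receptor list and, as a difference, the gene with the largest difference in each role. Col24a1, Col27a1 and Col6a6 were added after their values were seen. Lengths and coding sequences came from GENCODE M21 (GRCm38) and promoters from RefSeq (GRCm38.p6), matched by symbol. The authors' files give no coordinates, and none of build mm9 were used.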

Additional observations from a re-analysis of the deposited data

Results flagged for a closer look

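In 3 of 60 groups of libraries, 1 library stood far from the rest of its group by Dixon's test, which chance does in about 1 in 20 groups. All 3 were transgene replicate 3. Col16a1 was highest there among the transgene libraries at 9.845, Col11a1 was highest there at 5.014, and Col11a2 was lowest there at 5.047. This library also had the highest Bmi1 value, and the part of library quality in these values was not tested.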

How the results depend on the processing

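No paired analysis was possible because replicate numbers were given in accession order and pair no libraries. Of the 30 tested members, 14 were called higher with the group as the only term (11.7% of all tested genes were). In stratum 2 alone 3 were (2.3%), and with the length trend taken out 0 were (0% of all tested genes with a length). Of the biosynthesis list, 16 were called higher (11.7%) and 3 lower (12.7%) with the group as the only term. With the length trend taken out 0 were called higher (0%), so that count is not particular to the list. When both were changed, 8 were called higher (6.15%) and 3 lower (7.02%). The median difference over all members was 0.28 with a floor of 5 and 0.0233 in stratum 1. In stratum 1 the median was 0.0685 for fibrillar, 0.0255 for FACIT, -0.0520 for beaded, -0.0246 for transmembrane and -0.0300 for the other genes, and in stratum 2 it was 0.43 for beaded genes. The FACIT median was 0.10 with no floor and 0.10 with the length trend taken out, and the transmembrane median 0.0455 with a floor of 5 and -0.00548 with the length trend taken out.

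With 1 library left out at a time, members called higher ranged from 0 to 8, list genes called higher from 0 to 9 and lower from 0 to 1. The 8 came without transgene replicate 1 or control replicate 1, where stratum 2 alone informs the difference and 6.12% and 6.14% of all tested genes were called higher. Without transgene replicate 2 or any 1 of control replicates 2 to 5, limma called 0 of all 14490 genes higher, so the counts of 0 there are not particular to collagen genes. The medians ranged from 0.11 to 0.24 over all members, 0.20 to 0.57 for fibrillar, 0.11 to 0.21 for FACIT, 0.13 to 0.43 for beaded, -0.04 to 0.10 for network-forming, 0.00621 to 0.10 for transmembrane and 0.04 to 0.17 for the other genes. The lowest fibrillar, FACIT, beaded and overall medians were those without control replicate 3. Col23a1 changed sign, to -0.0781 after the length correction, and with 1 library left out it ranged from -0.0267 to 0.0395, below 0 without transgene replicates 2 and 4 and control replicates 2 and 3. Col8a2 ranged from -0.163 to 0.0303, above 0 without control replicate 2. The cause was not tested. Depth is unknown, so what it limits could not be measured.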
